A study of Mus musculus with 8 samples.

Results

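The mixing of chromosome territories was examined in the 19 mouse autosomes, chromosomes 1 to 19, which are 19 of the 21 chromosomes in a Hi-C contact table; chromosomes X and Y were not members. Hi-C ligates DNA ends that lie close together in the nucleus and reads them as pairs. For each autosome and library, the interchromosomal share was the percentage of its read ends that paired with another autosome, that is trans / (trans + 2 × cis), where cis counts pairs within the chromosome and trans pairs with the other 18. A pair within a chromosome holds 2 of its ends, hence the factor of 2, and a pair between autosomes enters the share of both, so the 19 values of a library are not independent.

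The libraries came from E14tg2A, a feeder-free mouse embryonic stem cell line of 129/Ola origin, and all were fixed with formaldehyde at 1% and cut with DpnII, an enzyme that cuts at GATC. WT cells (Ring1B+/+) gave 4 libraries, cells homozygous for the I53A substitution in RING1B (Ring1B I53A/I53A) gave 2, and cells without RING1B (Ring1B -/-, KO) gave 2, each mutant being a derivative line of E14tg2A. The labels number the libraries as biological replicates without saying whether they were separate cultures, so p-values measure the spread between libraries, and genotype cannot be told apart from the history of a line. Contact counts do not show the RING1B protein or its transcript, so the genotypes were taken from the labels.

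In interphase each chromosome occupies a territory of its own, and contacts between chromosomes arise where territories touch or intermingle. A small territory has more surface for its volume than a large one, and gene-rich chromosomes tend to lie nearer the centre of the nucleus than gene-poor ones. RING1B is a catalytic subunit of PRC1, a Polycomb complex that attaches ubiquitin to histone H2A, and the I53A substitution impairs that activity. The series asks what PRC1 contributes to nuclear organisation.

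Unique pairs numbered 121369690 to 164477401 in the WT libraries, 224243196 and 226877778 in I53A, and 262828203 and 268942815 in KO, and the widest Wilson 95% interval of any share extended 0.0261 percentage points to either side. Those intervals cover only the error of counting, which was small beside the spread between libraries. Pairs less than 1 kb apart, which in Hi-C are largely uncut or self-ligated DNA, took 42.3% to 50.4% of the intrachromosomal pairs in the WT libraries, 34.5% and 14.05% in I53A 1 and 2, and 24.6% and 32.9% in KO 1 and 2. They are counted in cis. Pairs that the deposited table lists as rescued formed a high set (43.1% to 47.2% of unique pairs in WT 3, WT 4, I53A 1, KO 1 and KO 2) and a low set (25.6% to 30.6% in WT 1, WT 2 and I53A 2). Chromosome 15 had 1.46 times its median share of read ends in WT 1 and WT 2, and 0.964 to 1.00 times elsewhere, and chromosome 11 had 1.45 times its median share in both KO libraries and 0.966 to 1.01 times elsewhere.

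In every library, shorter chromosomes had the larger interchromosomal share. Chromosome 1, the longest (1 to 197195432 in NCBIM37, the assembly also called mm9), had the lowest share of the 19 in 8 of 8 libraries, and chromosome 19, the shortest (1 to 61342430), the highest in 8 of 8. The share of chromosome 1 was 9.30%, 11.01%, 9.56% and 10.98% in WT 1 to 4, 10.95% and 13.9% in I53A 1 and 2, and 15.2% and 14.2% in KO 1 and 2. For chromosome 19 it was 12.3%, 14.2%, 12.5% and 14.6% in the WT libraries, 14.7% and 19.2% in I53A, and 19.9% and 19.4% in KO. The share of chromosome 19 was thus 1.29 to 1.39 times that of chromosome 1 within a library, while its length was 3.21 times smaller.

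Among the other autosomes, chromosome 17 (1 to 95272651) ranked second from the top in 8 of 8 libraries. Its share was 11.7% to 13.9% in the WT libraries, 14.01% and 18.1% in I53A 1 and 2, and 18.9% and 18.01% in KO 1 and 2. Chromosome 16 had rank 3 in 5 libraries and rank 4 in 3. At the other end, chromosomes 2 and 3 shared the places just above chromosome 1: chromosome 3 was second from the bottom in 6 libraries and chromosome 2 in the other 2. The WT means of these neighbours were 10.6% ± 0.945 for chromosome 2 and 10.6% ± 0.925 for chromosome 3 (SD, n = 4), and their order changed between libraries. Chromosome 2 was below chromosome 3 in WT 1 (9.60% against 9.74%) and WT 2 (11.37% against 11.46%). It was above chromosome 3 in WT 3 (9.96% against 9.81%) and WT 4 (11.43% against 11.29%). The WT means of all 19 ran from 10.2% ± 0.910 for chromosome 1 to 13.4% ± 1.18 for chromosome 19 (SD, n = 4), and the SD mostly reflects a shift of whole libraries, since the order within a library varied little.

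A straight line of share on length described most of this order. Its slope was -0.189, -0.208, -0.189 and -0.230 percentage points per 10 Mb in WT 1 to 4, -0.231 and -0.340 in I53A 1 and 2, and -0.310 and -0.337 in KO 1 and 2. Pearson's r over the 19 chromosomes lay between -0.923 and -0.872 in the 8 libraries. This is a description: the points share a library and their pairs. On log2 scales, halving the length went with a ratio of interchromosomal to intrachromosomal ends that was 1.17 to 1.19 times larger in WT, 1.19 and 1.23 times in I53A, and 1.20 and 1.23 times in KO.

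**Figure D1:**
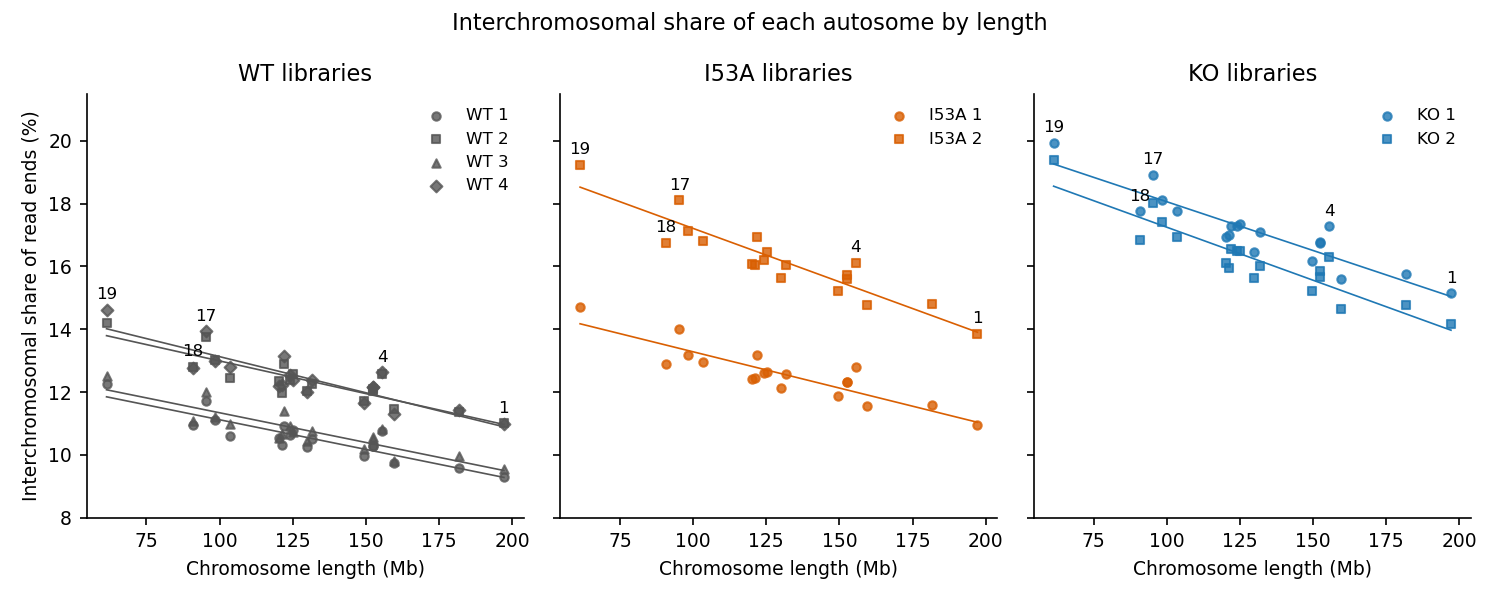
Interchromosomal share of read ends (%) of the 19 autosomes against chromosome length (Mb), in WT, I53A and KO panels; each symbol shape is 1 library and each line its least-squares fit, with chromosomes 1, 4, 17, 18 and 19 numbered at their highest library. Every line falls with length, with slopes between -0.340 and -0.189 percentage points per 10 Mb, and chromosomes 4 and 17 lie above and chromosome 18 below the lines.

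The slope with length lay in the interchromosomal ends. Intrachromosomal ends per Mb also fell with length in most libraries, which makes the slope of the ratio less steep. Ends per Mb were expressed as log2 over the median chromosome of the same library, and regressed on log2 length. Interchromosomal ends per Mb gave slopes of -0.35, -0.35, -0.27 and -0.31 in WT 1 to 4, -0.27 and -0.30 in I53A, and -0.32 and -0.33 in KO. Intrachromosomal ends per Mb gave slopes nearer to 0, at -0.11, -0.11, -0.029 and -0.051 in the WT libraries, -0.013 and 0.0013 in I53A, and -0.055 and -0.031 in KO. Ends per Mb also carry coverage. WT 1 and WT 2, with the steepest slopes of both kinds, had extra coverage of chromosome 15, a short chromosome, and KO had it of chromosome 11. The part of coverage in the slopes was not tested. In WT, chromosome 19 had interchromosomal ends per Mb at 0.36 ± 0.028 and intrachromosomal ends at 0.11 ± 0.015 (log2, SD, n = 4). Chromosome 17 had 0.21 ± 0.011 and 0.027 ± 0.013, and chromosome 1 had -0.24 ± 0.030 and -0.047 ± 0.029. Part of a slope is fixed by counting, because a longer chromosome leaves fewer ends elsewhere to pair with. With each share taken as a percentage of the share that random pairing of a library's ends would give, the slope remained negative in 8 of 8 libraries, at -0.189 to -0.152 percentage points per 10 Mb in the WT libraries, -0.187 and -0.286 in I53A, and -0.258 and -0.289 in KO.

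Chromosomes left the length line in much the same way in every library. Chromosomes 2, 4, 5, 7, 17 and 19 lay above the line in 8 of 8 libraries, and chromosomes 3, 6, 10, 12, 13, 15 and 18 below it in 8 of 8. Chromosome 4, a long chromosome of 155.6 Mb, stood highest above the WT lines, with residuals of 0.685, 0.726, 0.548 and 0.777 percentage points in WT 1 to 4, 0.810 and 0.799 in I53A, and 0.948 and 0.928 in KO. Chromosome 17 followed in WT with a mean of 0.605 ± 0.0929 percentage points and chromosome 19 with 0.462 ± 0.0977 (SD, n = 4). The 3 lowest WT means were those of chromosome 18 at -0.432 ± 0.100, chromosome 12 at -0.420 ± 0.113 and chromosome 15 at -0.369 ± 0.113 (SD, n = 4). These residuals exceeded the spread between WT libraries. Chromosome 15 stood lower in the libraries with the higher coverage of that chromosome, at -0.457 and -0.475 in WT 1 and WT 2, than in WT 3 and WT 4, at -0.285 and -0.260. These pairs of libraries differ in rescued set too, and they also split in chromosomes 13 and 14. Chromosome 14 was at 0.142 and 0.0974 in WT 1 and WT 2, and at -0.138 and -0.167 in WT 3 and WT 4. Chromosome 13 was at -0.188 and -0.229, and at -0.428 and -0.456. The part of coverage in these splits was not tested. The 19 residuals of any 2 libraries correlated at r = 0.883 or more over 19 chromosomes, a description of libraries of related lines mapped to one assembly.

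**Figure D2:**
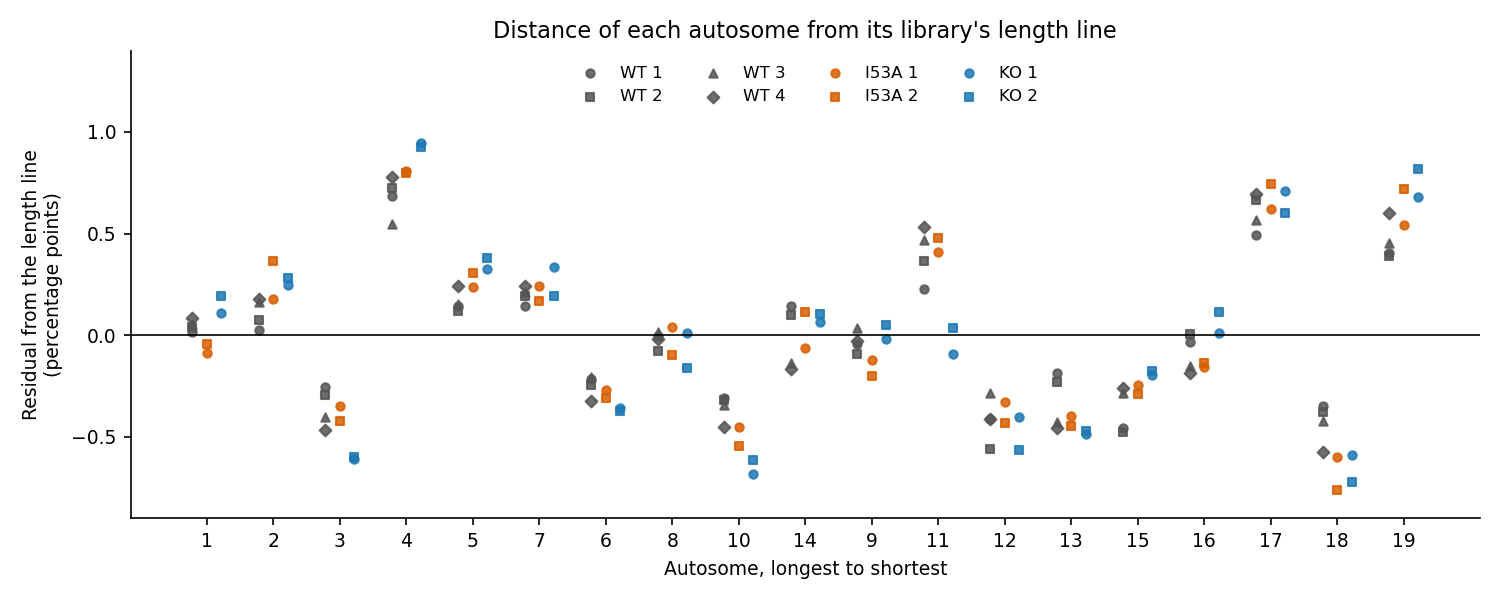
Residual of each autosome from its own library's line of share on length, in percentage points, with autosomes ordered from longest to shortest; each point is 1 library, coloured by genotype and shaped by replicate number. Chromosome 4 lies 0.548 to 0.948 percentage points above the line in all 8 libraries and chromosome 18 0.349 to 0.765 below it, while chromosome 11 is above the line in the 6 WT and I53A libraries and near 0 in KO.

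The residuals were higher in gene-dense and GC-rich chromosomes. Across the 19 chromosomes, the correlation of the residual with protein-coding genes per Mb of sequenced bases lay between r = 0.547 and 0.749 in the 8 libraries, and between 0.421 and 0.687 without chromosomes 17 and 19. With GC content it lay between 0.499 and 0.740, or between 0.417 and 0.717 without chromosomes 17 and 19. With GATC sites per Mb it lay between 0.229 and 0.318, or between 0.356 and 0.439 without chromosomes 17 and 19. In KO the ranges for genes (0.421 and 0.427), GC content (0.417 and 0.444) and GATC sites (0.356 and 0.432) without those chromosomes overlapped. Gene density and GC content vary together along the mouse genome, and their parts were not separated. Chromosomes 17 and 19 carry 11.9 and 12.5 protein-coding genes per Mb, and chromosomes 18 and 12, which had the lowest 2 mean residuals in WT, carry 5.90 and 5.99. Chromosome 4, with 8.92, stood above the line without being among the densest, and chromosome 7, the densest at 14.6, lay only 0.197 ± 0.0401 percentage points above it in WT (SD, n = 4).

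Chromosomes 12, 15, 16, 18 and 19 are the ones that carry nucleolar organisers, the ribosomal RNA gene arrays, in many mouse strains. Their residuals did not share a sign: 12, 15 and 18 were below the line and 19 above it in 8 of 8 libraries, and 16 was below in 5 and above in 3. In KO, chromosome 16 was at 0.00886 and 0.111 percentage points, against -0.185 to 0.00608 in WT.

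The level of the share was compared next between genotypes. The share counts all interchromosomal pairs, and the part of territory mixing in it was not separated from differences in library quality. As counted, the median share of the 19 autosomes was 10.5%, 12.3%, 10.7% and 12.4% in WT 1 to 4, 12.6% and 16.1% in I53A, and 17.1% and 16.1% in KO. Both mutant lines lay above all WT libraries, I53A 1 by a small step. The WT mean was 11.5% ± 0.997 (SD, n = 4), the I53A mean 14.3% ± 2.46 and the KO mean 16.6% ± 0.7002 (SD, n = 2 for both). I53A exceeded WT by 2.83 percentage points, or by 1.09 to 4.57 with each library left out in turn, and KO exceeded WT by 5.09 (exact permutation p = 0.133 for both, two-sided, the smallest that 2 libraries against 4 allow). I53A differed from KO by -2.26 percentage points (exact permutation p = 0.333, the smallest that 2 against 2 allow), so none of these tests could pass 0.05. The comparisons of I53A and KO with WT use the same 4 WT libraries.

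The short pairs moved with this difference: the 4 WT libraries had the highest percentages of pairs under 1 kb and the lowest shares. With cis counts scaled to the pairs at 1 kb or more, the median share was 19.1%, 20.3%, 19.5% and 19.7% in WT 1 to 4, 18.03% and 18.2% in I53A, and 21.4% and 22.2% in KO. On this scale both I53A libraries lay below every WT library and both KO libraries above. I53A then differed from WT by -1.54 percentage points, the opposite sign to the value as counted, and KO exceeded WT by 2.18 (exact permutation p = 0.133 for both, two-sided). The scaling used 1 factor for all chromosomes of a library, because short pairs are not counted by chromosome in the table. Within the high rescued set, the median share as counted was 1.04 percentage points higher in I53A than in WT and 5.03 higher in KO than in WT, and within the low set it was 4.63 higher in I53A than in WT. The low set held no KO library.

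**Figure D3:**
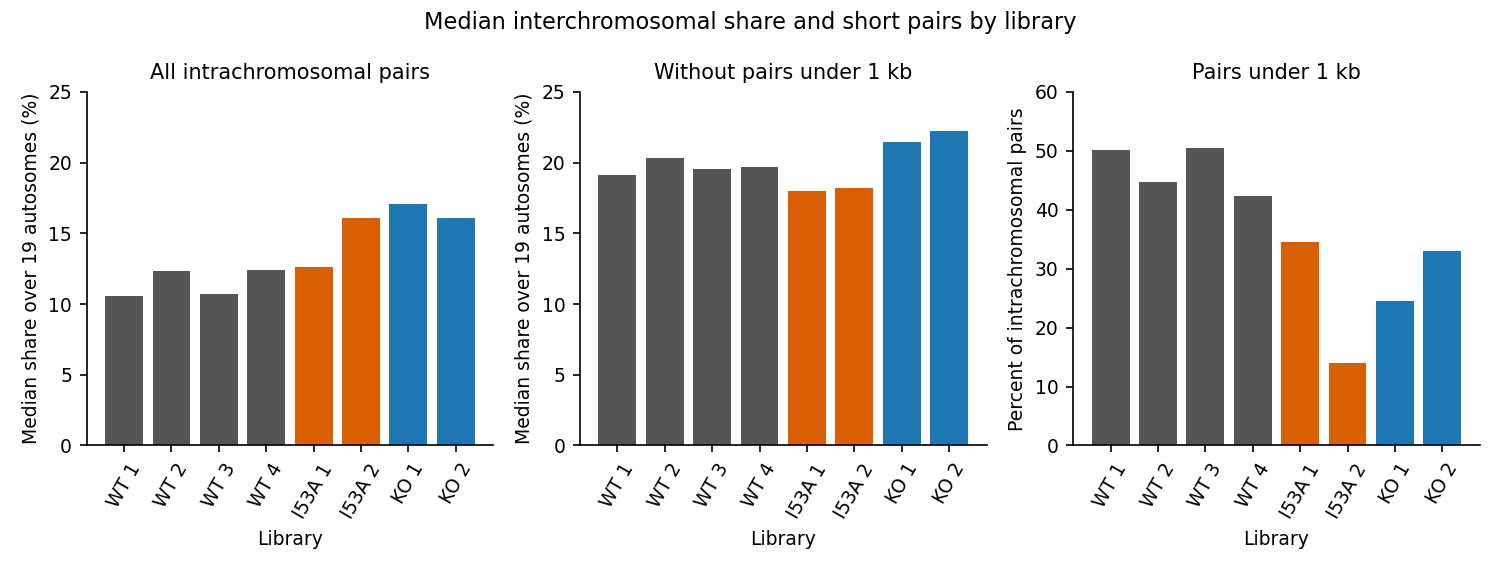
Median interchromosomal share of the 19 autosomes (%) by library with all intrachromosomal pairs counted (left) and with those under 1 kb removed by 1 factor per library (middle), and the percentage of intrachromosomal pairs under 1 kb (right); bars are single libraries. I53A stands above WT at left, with 12.6% and 16.1%, and below WT in the middle, with 18.03% and 18.2%, while KO stands above WT in both.

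Single chromosomes were tested with edgeR's quasi-likelihood test of interchromosomal ends with the chromosome's own intrachromosomal ends as offset, over 20 chromosomes (the autosomes and X). All 19 autosomes were higher in KO than in WT, by 0.56 to 0.66 on the log2 scale (edgeR adjusted p from 0.000142 to 0.000287), and in KO the share of each of the 19 lay above all WT libraries, where 100% of the chromosomes tested did so and 100% were called higher. In I53A all 19 were higher by 0.32 to 0.41 (edgeR adjusted p from 0.022 to 0.0375), with 100% of chromosomes called higher. In 18 of 19, both I53A libraries lay above every WT library, against 90% of the chromosomes tested, and the exception was chromosome 1. Both I53A libraries lay below both KO libraries in 11 of 19 autosomes, against 55% of the chromosomes tested. Between I53A and KO, edgeR called 0 autosomes of 19, with 0 at an unadjusted p under 0.05, and DESeq2 and limma also called 0. These calls repeat 1 shift of whole libraries and are not 19 separate findings. edgeR pooled its estimate of the spread over the 20 chromosomes as if they were independent. Because they shift together, the adjusted p-values of the ratios as counted overstate what 8 libraries can show. The I53A calls fell to 0 without WT replicate 1, without WT replicate 3 or without I53A replicate 2, and without I53A replicate 2 all 19 autosomes were called lower in I53A than in KO. With replicate number as a term in the fit, 0 autosomes were called in I53A against WT (edgeR adjusted p from 0.0748 to 0.0959) and 19 in KO against WT. With cis pairs at 1 kb or more, edgeR called all 19 autosomes lower in I53A than in WT, by -0.19 to -0.11 on the log2 scale, and all 19 higher in KO, by 0.14 to 0.24, with 100% of the chromosomes called in each case. On that scale all 19 were also called lower in I53A than in KO, by -0.36 to -0.29, again with 100% of the chromosomes called. These calls too repeat a shift of whole libraries.

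The slope with length was compared between genotypes. WT lines had a mean slope of -0.204 ± 0.0194 percentage points per 10 Mb (SD, n = 4), I53A lines one of -0.285 ± 0.0772 and KO lines one of -0.324 ± 0.0191 (SD, n = 2 for both). The lines of both mutants were steeper than every WT line, although I53A 1 at -0.231 was close to WT 4 at -0.230. The difference from WT was -0.0814 in I53A and -0.120 in KO (exact permutation p = 0.133 for both, two-sided, the smallest possible). With each library left out in turn the I53A difference ran from -0.136, without I53A replicate 1, to -0.0268, without I53A replicate 2. I53A differed from KO by 0.0385 (exact permutation p = 1, two-sided), with overlapping libraries. Within the high rescued set the differences from WT were -0.0213 in I53A and -0.114 in KO, and within the low set -0.141 in I53A. With chromosomes 1, 11 and 15 left out, I53A overlapped WT, with a difference of -0.0689 (exact permutation p = 0.267, two-sided). KO stayed apart from WT in that setting, with a difference of -0.109 (exact permutation p = 0.133, two-sided).

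A steeper line in percentage points can come from a higher level alone. On log2 scales, which remove the level, the slope was -0.24, -0.23, -0.24 and -0.25 in WT 1 to 4, -0.25 and -0.30 in I53A, and -0.26 and -0.30 in KO. I53A 1 then lay among the WT libraries, and the difference of I53A from WT was -0.036 (exact permutation p = 0.267, two-sided). Both KO lines remained steeper than all WT lines, with a difference of -0.041 (exact permutation p = 0.133, two-sided). With pairs at 1 kb or more the slope differed from WT by -0.0266 percentage points per 10 Mb in I53A, with overlapping libraries, and by -0.0839 in KO, without overlap (exact permutation p = 0.4 and 0.133, two-sided).

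To see which chromosomes moved apart from their library, the ratio of interchromosomal to intrachromosomal ends of each chromosome was divided by the median ratio of the library. These relative ratios differed little: edgeR's common coefficient of variation was 1.19%, against 12.2% for the ratios as counted. Their median difference is near 0 by construction. In I53A, 1 autosome was called, chromosome 1. Its relative log2 ratio was -0.20, -0.19, -0.19 and -0.20 in WT 1 to 4, -0.23 and -0.25 in I53A, and -0.21 and -0.22 in KO. Both I53A libraries lay below every WT library, by a mean log2 of -0.047 ± 0.0095 (SE, edgeR adjusted p = 0.0164). Of the chromosomes tested, 5% were called lower and 5% lay without overlap below WT, and in both cases chromosome 1 was the 1 chromosome. The call was lost without WT replicate 2 (edgeR adjusted p = 0.0559), without WT replicate 3 (0.0525), without I53A replicate 2 (0.244) and with chromosomes 1, 11 and 15 left out as partners (0.0668). The coverage of chromosome 1 differed too: its intrachromosomal ends per Mb, as log2 over the median chromosome, were at -0.047 ± 0.029 in the WT libraries (SD, n = 4) and at 0.041 ± 0.0093 in those of I53A (SD, n = 2), and its interchromosomal ends were -0.24 ± 0.030 and -0.19 ± 0.029. The part of this coverage in the result was not tested.

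In KO, edgeR called 0 of 19 autosomes relative to the library, with 5 at an unadjusted p under 0.05, while DESeq2 called 4, limma 0 and edgeR with an abundance trend 2. The chromosomes nearest to the threshold, named after their values were seen, were 11, 15 and 16, with 19 and 3 behind them. Chromosome 15 had relative log2 ratios of 0.0073, 0.014, 0.039 and 0.054 in WT 1 to 4, 0.048 and 0.076 in I53A, and 0.067 and 0.090 in KO. Both KO libraries lay above all WT libraries, and the lowest values were those of WT 1 and WT 2. Those 2 libraries had the extra coverage of chromosome 15 and were also of the low rescued set. The KO difference was 0.050 ± 0.015 (SE, edgeR adjusted p = 0.0825). Chromosome 16 differed by 0.039 ± 0.013 (SE, edgeR adjusted p = 0.0985) and chromosome 19 by 0.048 ± 0.019 (SE, edgeR adjusted p = 0.167). The differences of both rested on KO 2 more than on KO 1: without KO replicate 2 they were 0.022 and 0.022, and without KO replicate 1 0.055 and 0.074. The KO libraries lay above all WT libraries in chromosomes 15, 16 and 18 and below them in 1, 3 and 11, each direction being 15% of the chromosomes tested.

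Chromosome 11 had the lowest difference in KO. Its relative log2 ratio was 0.058, 0.073, 0.098 and 0.10 in WT 1 to 4, 0.077 and 0.091 in I53A, and 0.021 and 0.048 in KO. Both KO libraries lay below the 6 others. The difference from WT was -0.048 ± 0.014 (SE, edgeR adjusted p = 0.0825, or 0.0310 without WT replicate 1) and that of I53A from KO 0.050 ± 0.016 (SE, edgeR adjusted p = 0.257). KO was the line with extra coverage of chromosome 11: its intrachromosomal ends per Mb were 0.87 ± 0.0050 in KO (SD, n = 2) and 0.29 ± 0.027 in WT (SD, n = 4) as log2 over the median chromosome, and its interchromosomal ends 0.90 ± 0.019 and 0.37 ± 0.022. With chromosomes 1, 11 and 15 left out as partners, the KO difference of chromosome 11 was -0.0081 (edgeR adjusted p = 0.824) and that of chromosome 15 was 0.023 (edgeR adjusted p = 0.289). In percentage points chromosome 11 lay 0.227 to 0.530 above the line in WT, 0.411 and 0.480 in I53A, and at -0.0921 and 0.0367 in KO, and its rank by share was 3 to 5 in the WT and I53A libraries, 8 in KO 1 and 6 in KO 2. Between I53A and KO, edgeR called 0 autosomes, with 2 at an unadjusted p under 0.05, DESeq2 called 0 and limma 0, while edgeR with an abundance trend called chromosome 11 (adjusted p = 0.00249). I53A lay above KO without overlap in chromosomes 3 and 11 (15% of chromosomes tested) and below it in 1, 5 and 9 (15%).

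**Figure D4:**
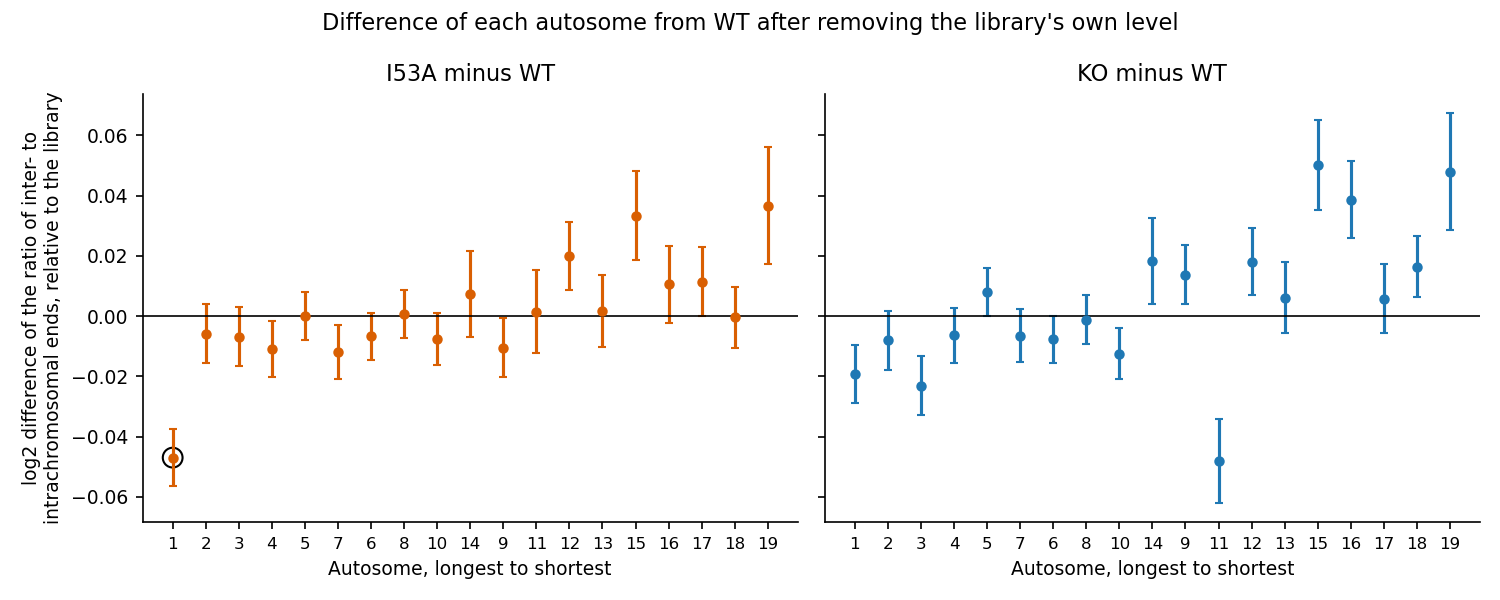
Log2 difference from WT of the ratio of interchromosomal to intrachromosomal ends, relative to the library's median, for each autosome from longest to shortest in I53A (left) and KO (right); points are edgeR estimates, bars 1 SE, and a ring marks an adjusted p below 0.05. Chromosome 1 in I53A, at -0.047, is the 1 ringed point, and chromosomes 11, at -0.048, and 15, at 0.050, are the extremes in KO.

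Contacts between particular autosomes were then grouped by length, since the share does not say with which chromosomes the pairs were formed. The autosomes were split into the 6 longest (1, 2, 3, 4, 5 and 7), 7 of middle length and the 6 shortest (13, 15, 16, 17, 18 and 19), and each of the 171 pairs was given as log2 of observed over expected contacts, where the expected count comes from the interchromosomal totals of both chromosomes by iterative fitting. Contacts among the longest and among the shortest chromosomes were above the expected count, and those of long with short below it, by a small amount. Chromosomes 15, 16, 18 and 19 of the short class are also on the list of nucleolar organiser chromosomes, and length was not separated from that property. In WT the mean was 0.034 ± 0.0032 for short with short, 0.021 ± 0.0036 for long with long and -0.024 ± 0.0034 for long with short (SD, n = 4). Likeness in length did not order all classes: middle with middle was at -0.0030 ± 0.0029 in WT, and middle with short was above 0 in 8 of 8 libraries, with a WT mean of 0.0082 ± 0.0019 (SD, n = 4). Short with short was 0.039, 0.033, 0.034 and 0.031 in WT 1 to 4, 0.028 and 0.035 in I53A, and 0.038 and 0.043 in KO. Long with short was -0.028, -0.025, -0.020 and -0.024 in the WT libraries, -0.024 and -0.027 in I53A, and -0.030 and -0.033 in KO. The signs of the first 3 classes held in 8 of 8 libraries, but the sign of short with short depends on the expected count: with the plain product of the totals it was -0.0058 in WT, while long with long was 0.048 and long with short -0.031.

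The pairs at the extremes were of chromosomes 18 with 19, with a WT mean of 0.14 ± 0.033 (SD, n = 4), an I53A mean of 0.12 ± 0.0047 and a KO mean of 0.19 ± 0.031 (SD, n = 2 for both), and of chromosomes 1 with 19, the longest with the shortest, at -0.099 ± 0.0069, -0.10 ± 0.0095 and -0.10 ± 0.0019. The 3 means of chromosomes 1 with 19 differed by less than the WT SD. Across the 171 pairs the ratio fell with the difference in length of both chromosomes, with r between -0.286 and -0.223 in the 8 libraries, a weak relation over pairs that share chromosomes.

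With 2 libraries per mutant line, the permutation tests could not call any length class different between genotypes, so they do not show that the classes were alike. The KO libraries lay above WT in long with long, by 0.0068, and below WT in long with short, by -0.0069 (exact permutation p = 0.133 for both, two-sided, or 0.267 adjusted over the 6 classes). Because the fitted counts keep the interchromosomal total of each chromosome, an excess in any class is offset in others. The 6 classes are therefore not separate results. I53A lay above WT in long with long by 0.0052 (exact permutation p = 0.133, two-sided, or 0.2 adjusted), and at the same p it lay apart from WT without overlap in long with middle by -0.0049, in middle with middle by 0.0047 and in middle with short by 0.0028. KO lay above WT without overlap in middle with short too, by 0.0024 (exact permutation p = 0.133, two-sided). I53A overlapped WT in long with short, with a difference of -0.0010 (exact permutation p = 0.8, two-sided). Within the high rescued set KO differed from WT by 0.0082 in long with long and by -0.0093 in long with short. With the plain product as the expectation, the KO difference in long with long was -0.0025, of the opposite sign, and that in long with short was -0.017.

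**Figure D5:**
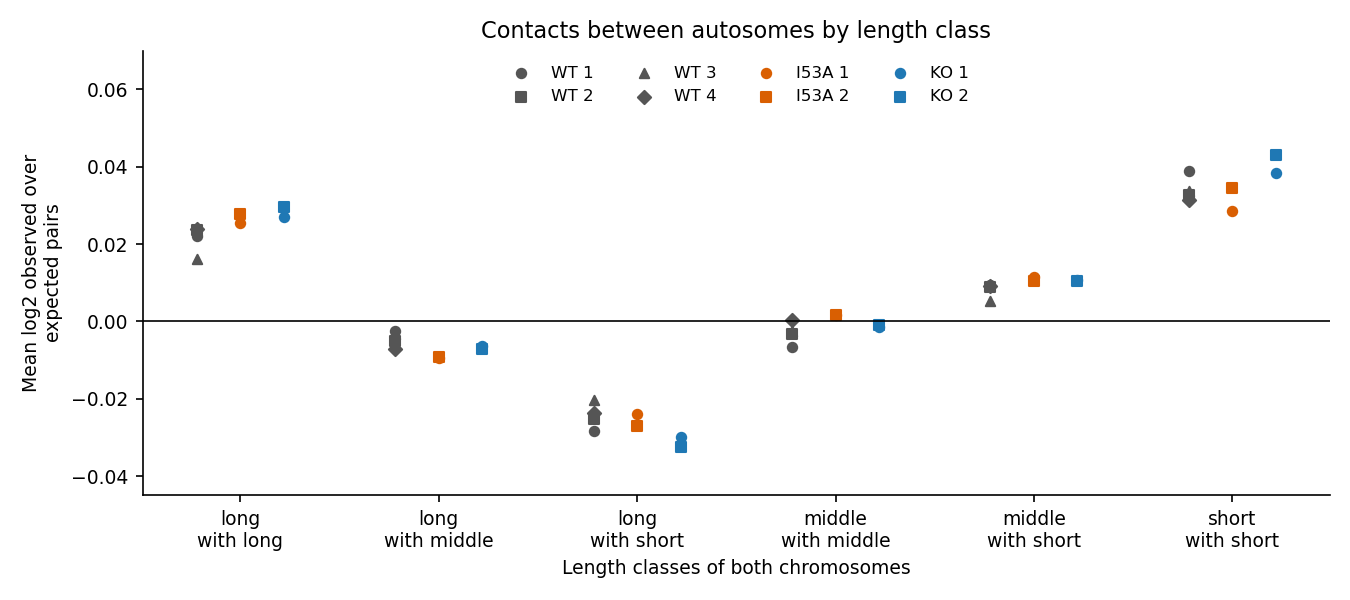
Mean log2 of observed over expected contacts between autosomes for the 6 combinations of length classes (long, middle and short); each point is 1 library, coloured by genotype and shaped by replicate number. Long with long and short with short lie above 0 and long with short below 0 in all 8 libraries. The KO points lie outside the WT range in long with long, long with short and middle with short. The I53A points lie outside it in long with long, long with middle, middle with middle and middle with short.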

How the data were processed

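Hi-C read pairs of 8 libraries were analysed. The authors deposited 409 statistics per library, which are raw counts of read pairs, among them the 231 chromosome pairs; per the submitters' processing notes the build was mm9, and the aligner, its filters and whether test and deep runs were pooled are not given in the sources used here. The deposited table also held 3 pooled genotype columns, which were not used. Chromosome lengths, base composition, GATC sites and genes came from NCBIM37 and its gene annotation.

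From the counts, shares, least-squares lines on length, residuals and ratios of observed to expected contacts were computed with Python 3.11.15, numpy 2.4.6 and scipy 1.17.1, and groups were compared by exact permutation tests, two-sided. Interchromosomal ends per chromosome were tested in edgeR 4.0.16 (R 4.3.3) over all 8 libraries with 1 mean per genotype, the log of the intrachromosomal ends as offset, Benjamini-Hochberg adjustment over 20 chromosomes and a threshold of 0.05. The relative fit added the median log ratio of the library to the offset. edgeR used 1 common dispersion, not below 0.00012, and no abundance trend, chosen after values were seen, because its default dispersions failed at counts this large (deviances up to 865200000 on 5 residual degrees of freedom). DESeq2 1.42.0 and limma 3.58.1 were alternatives. Of the fits, only the relative edgeR fit of KO against WT was run on simulated data, in which the chromosomes were drawn independently. A minimum count of 10 left all 20 chromosomes. Libraries of a group differed by a chi-square per degree of freedom of 449.6 or more, so none was a copy. Chromosomes named are the longest and shortest, the 3 highest and 3 lowest WT residuals, called chromosomes whose libraries did not overlap, and 11 and 15 for their coverage; other names were chosen after their values were seen. The members and lists were chosen with earlier results of these data known.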

Additional observations from a re-analysis of the deposited data

Results flagged for a closer look

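Contacts of middle with short chromosomes had 1 WT library apart from the others: WT 3 was at 0.0054 on the log2 scale and the other WT libraries at 0.0090 to 0.0094, a gap of 0.900 of the range, above Dixon's 95% limit for 4 samples. This was 1 of 47 measures checked in WT, where chance flags about 1 in 20 groups and would give 2.35.

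The median share with cis pairs at 1 kb or more moved in opposite directions in the mutant lines. Both I53A libraries lay below every WT library and both KO libraries above, and I53A differed from KO by -3.72 percentage points. The smallest p of the exact permutation test at 2 libraries against 2 is 0.333. On the same scale edgeR called all 19 autosomes lower in I53A than in KO. Those calls repeat 1 shift of whole libraries and are not 19 separate findings. As counted, with the short pairs included, both lines lay above WT.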

How the results depend on the processing

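The slope of share on length was negative in every library under each measure of length, scale and set of partners tried. Between I53A and KO the slope difference ran from -0.0160 to 0.0931 as each library was left out, and was negative without I53A 1. The median share of I53A against WT reversed with cis pairs at 1 kb or more, to -1.54 percentage points, and with short pairs assigned by read ends (an alternative chosen after the data were seen), to -1.55. For the tests as counted, the 19 higher calls in I53A against WT became 0 with the replicate block and with cis pairs at 1 kb or more, where 19 were lower, and ran from 0 to 19 as each library was left out. Lower calls in I53A against KO were 19 with cis pairs at 1 kb or more and ran from 0 to 19 with libraries left out, the 19 arising without I53A 2.

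Relative to the library, the alternatives mostly added calls. In I53A against WT, higher calls were 1 with an abundance trend in edgeR (added after the data were seen) and 3 with the replicate block, and the lower call was 0 without chromosomes 1, 11 and 15 as partners and 0 to 1 with libraries left out. In KO against WT, higher calls were 3 with DESeq2, 1 with the abundance trend, 4 with the replicate block, 2 with the rescued set as a term and 1 with summed ends as the library scale. Lower calls were 1, 1, 2, 1 and 1 under the same settings, and 0 to 1 with libraries left out, the 1 arising without WT 1. In I53A against KO, higher calls were 1 with the abundance trend and 1 with the replicate block. Same-numbered I53A and KO libraries deviated together over the chromosomes (r = 0.830), but WT libraries 1 and 2 did not (r from -0.248 to 0.0309). The numbers were not taken to pair the samples, but these values cannot decide it. The deviations of 2 libraries from their mean are mirror images, and those of WT were taken from a mean of 4 libraries.

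Between length classes, long with long reversed under an expected count from the product of totals, to -0.0025 for KO against WT and 0.010 for I53A against KO, and short with short for KO against WT to -0.0049. Long with short for I53A against WT was 0.00071 without chromosomes 1, 11 and 15 and -0.0026 to 0.00049 with libraries left out, the positive values arising without WT 3 or I53A 2. Short with short for I53A against WT ran from -0.0057 to 0.00033, positive without I53A 1. The causes of these changes were not tested. With 2 libraries per mutant line, no permutation test could pass 0.05, and counting error was small beside the spread between libraries.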
